A study of Mus musculus with 24 samples.

Results

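Endothelial cells line blood vessels, and 9 genes whose transcripts mark them, Pecam1, Cdh5, Kdr, Flt1, Tek, Tie1, Vwf, Emcn and Gpihbp1, were followed with Vegfa, the gene of the main vascular growth factor. The 10 genes were selected by name, as known markers and ligand, and their rows were read from the 24421 gene symbols counted in every library. Total RNA of adipose tissue was sequenced from C57BL/6 mice aged 2 months, with 4 libraries in each of 6 groups: wild-type (WT) males and females, males and females with STAT5B Y665F, and males and females with STAT5B Y665H. STAT5B is a transcription factor downstream of cytokine and growth hormone receptors, and both substitutions replace a tyrosine of its SH2 domain, with phenylalanine in Y665F and with histidine in Y665H. No treatment is named for any group. The fat depot, the way the alleles were made and whether mice carried the change on 1 or both copies are not given in the sources used here. The libraries of a group are labelled only as replicates 1 to 4, so p-values measure the spread between these libraries.

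White fat is densely supplied with capillaries, through which it takes up fatty acids and releases stored lipid. VEGFA, which adipocytes and other stromal cells secrete and which hypoxia-inducible factors can induce, acts on endothelial cells through KDR (VEGFR2), while FLT1 (VEGFR1) binds the same ligand tightly and, in its soluble form, traps it. A separate ligand system, the angiopoietins, acts on TEK (TIE2) and its partner TIE1 and controls vessel stability. PECAM1 and VE-cadherin (CDH5) join neighbouring endothelial cells, endomucin (EMCN) coats the lumen of capillaries and veins, von Willebrand factor (VWF) is stored by endothelial cells and platelets for haemostasis, and GPIHBP1 carries lipoprotein lipase to the capillary lumen.

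Depth ran from 21.0 M to 41.3 M gene counts per library (M stands for 1e6), and the rarest member, Emcn, had at least 308 counts in every library. All 10 members therefore passed the filter on low counts in every comparison. The adipocyte markers were present throughout (12 of 12 genes above 0 in every library), as were the 9 endothelial genes. WT males stood apart in spread. The median coefficient of variation of the 9 endothelial genes was 34.7% in WT males and 10.6 to 15.9% in the other 5 groups. For Vegfa it was 19.5% in WT males, below the 25.9% of Y665F females. WT male 2 was the lowest of its group in 10 of 10 members and WT male 1 the highest in 10 of 10. Epididymis markers, 8 genes of the duct that lies beside male gonadal fat, summed to 12571.8 CPM (counts per 1000000 gene counts) in WT male 2, 2273.9 in WT male 3, 663.3 in WT male 4 and 1.32 in WT male 1. The same sum was 0.477 to 634.9 CPM in the other males and at most 2.16 CPM in females, where 4 to 7 of the 8 genes were at 0. Results that involve WT males are given below with and without WT males 1 and 2. In bulk tissue, fewer endothelial cells and less RNA per endothelial cell cannot be told apart.

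**Figure D1:**
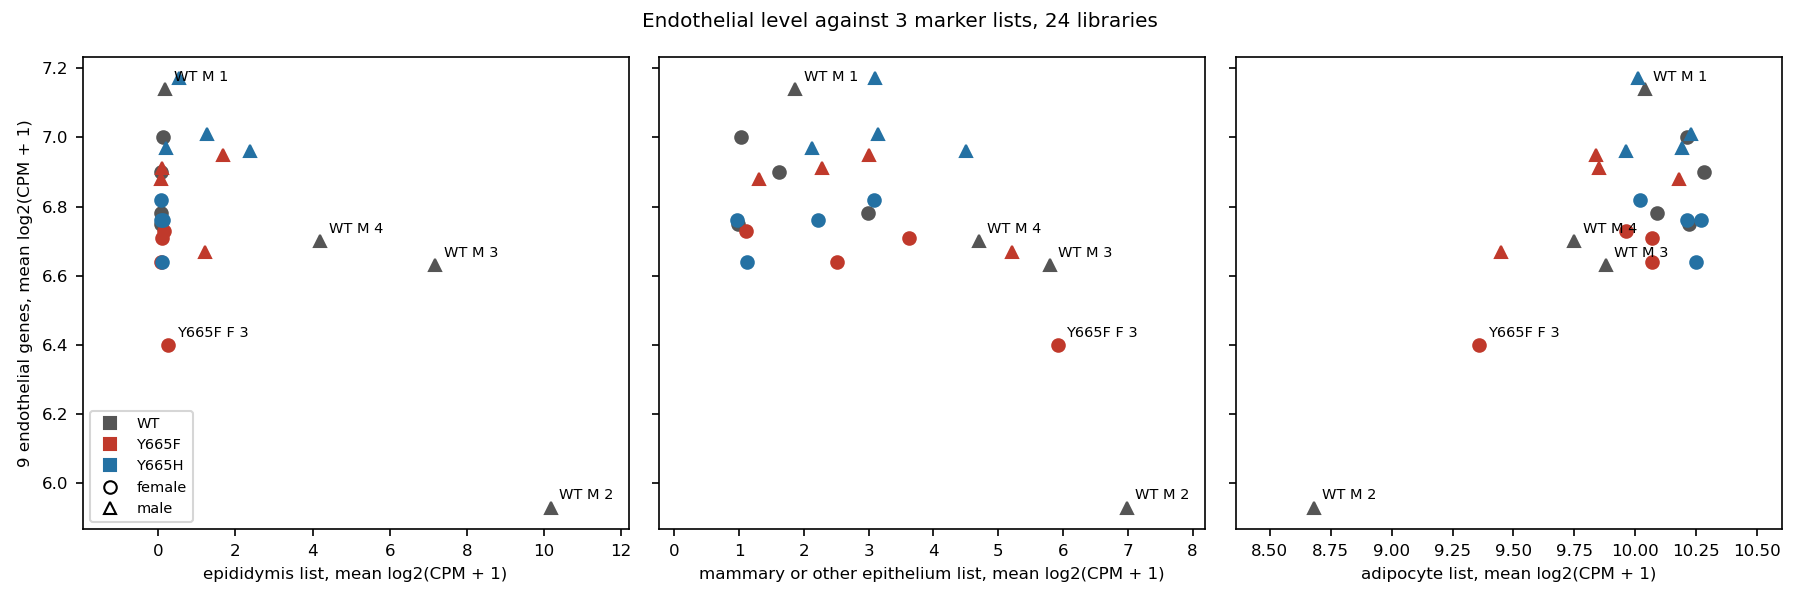
Mean log2(CPM + 1) of the 9 endothelial genes (vertical axis) against that of 3 marker lists (horizontal axes) in 24 libraries, coloured by genotype, with circles for females (F) and triangles for males (M). WT male 2 has the lowest endothelial mean (5.93) with the highest epididymis mean (10.17) and the lowest adipocyte mean (8.68), and Y665F female 3 has the second-lowest endothelial mean (6.40).

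Across the 24 libraries, the endothelial mean on this scale was lowest in WT male 2, at 5.93, and next lowest in Y665F female 3, at 6.40, as the plot against marker lists shows. The adipocyte mean was also lowest in these libraries, at 8.68 and 9.36. Their epithelial marker means were 6.99 and 5.92, against at most 5.80 in the other libraries. Whether these markers have a part in the endothelial values was not tested.

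In GENCODE M21 (GRCm38, the mm10 build), the exons of none of the 10 members overlap those of another gene. CPM per kilobase (kb) of merged exon compare levels between genes. By this measure, averaged over the 24 libraries, Cdh5 (chr8:104101625-104144511) was highest at 64.7 CPM per kb, followed by Vegfa (chr17:46016993-46032369) at 46.4 and Pecam1 (chr11:106654217-106750628) at 32.2. Gpihbp1 (chr15:75596628-75599481) was at 27.6, Tie1 (chr4:118471191-118490061) at 26.7 and Kdr (chr5:75932827-75978458) at 22.2 CPM per kb. Tek (chr4:94739289-94874976) was at 15.6, Vwf (chr6:125546774-125686679) at 12.2, Flt1 (chr5:147561604-147726011) at 7.31 and Emcn (chr3:137341067-137432185) at 3.41 CPM per kb. The receptor with the highest level per length was thus Tie1, and the member called most often below, Emcn, was the least abundant. Flt1 counts take in soluble and membrane-bound forms together.

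The bases upstream of Emcn, the member that passed the test below, and of Vegfa, the ligand, are printed because STAT5 proteins bind the motif TTCNNNGAA and endothelial genes are commonly bound by ETS factors at GGAA. Both are RefSeq sequences (GRCm38.p6), 5′ to 3′ on the gene's strand (plus for Emcn, minus for Vegfa), ending before the first base of the gene in either annotation. Capitals mark GGAA on either strand (TTCC when read on the printed strand).
Emcn, chr3:137340828-137341066: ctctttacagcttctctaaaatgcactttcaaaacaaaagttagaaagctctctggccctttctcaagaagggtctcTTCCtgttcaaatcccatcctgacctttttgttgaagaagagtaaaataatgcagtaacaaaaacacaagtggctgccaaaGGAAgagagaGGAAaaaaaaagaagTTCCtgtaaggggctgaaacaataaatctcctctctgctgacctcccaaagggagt
Vegfa, chr17:46032378-46032627: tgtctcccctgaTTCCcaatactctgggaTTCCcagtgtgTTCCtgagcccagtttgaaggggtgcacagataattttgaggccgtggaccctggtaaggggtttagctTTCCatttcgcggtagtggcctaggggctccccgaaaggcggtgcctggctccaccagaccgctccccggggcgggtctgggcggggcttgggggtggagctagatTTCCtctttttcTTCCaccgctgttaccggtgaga
The Emcn stretch holds 4 GGAA and the Vegfa stretch 6. Neither printed stretch holds TTCNNNGAA on either strand, nor ACGTG, a hypoxia-response core, nor the variant of that core that reads GCGTG. Among 32851 mouse promoter windows of 250 bases, 93.4% held GGAA (median 3), 33.4% held at least 4, 7.02% held TTCNNNGAA, 16.6% the core ACGTG and 28.2% the variant core GCGTG. The full Emcn window of 250 bases, which runs into the first exon, holds 1 GCGTG. A second Vegfa window (chr17:46025164-46025413), at a RefSeq start inside the gene, holds 1 ACGTG and 1 GCGTG. The hypoxia-response cores share their last 4 letters and were counted apart, each on both strands. Promoter entries were found for 6 of the 10 members. These matches describe the letters in these windows.

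**Figure D2:**
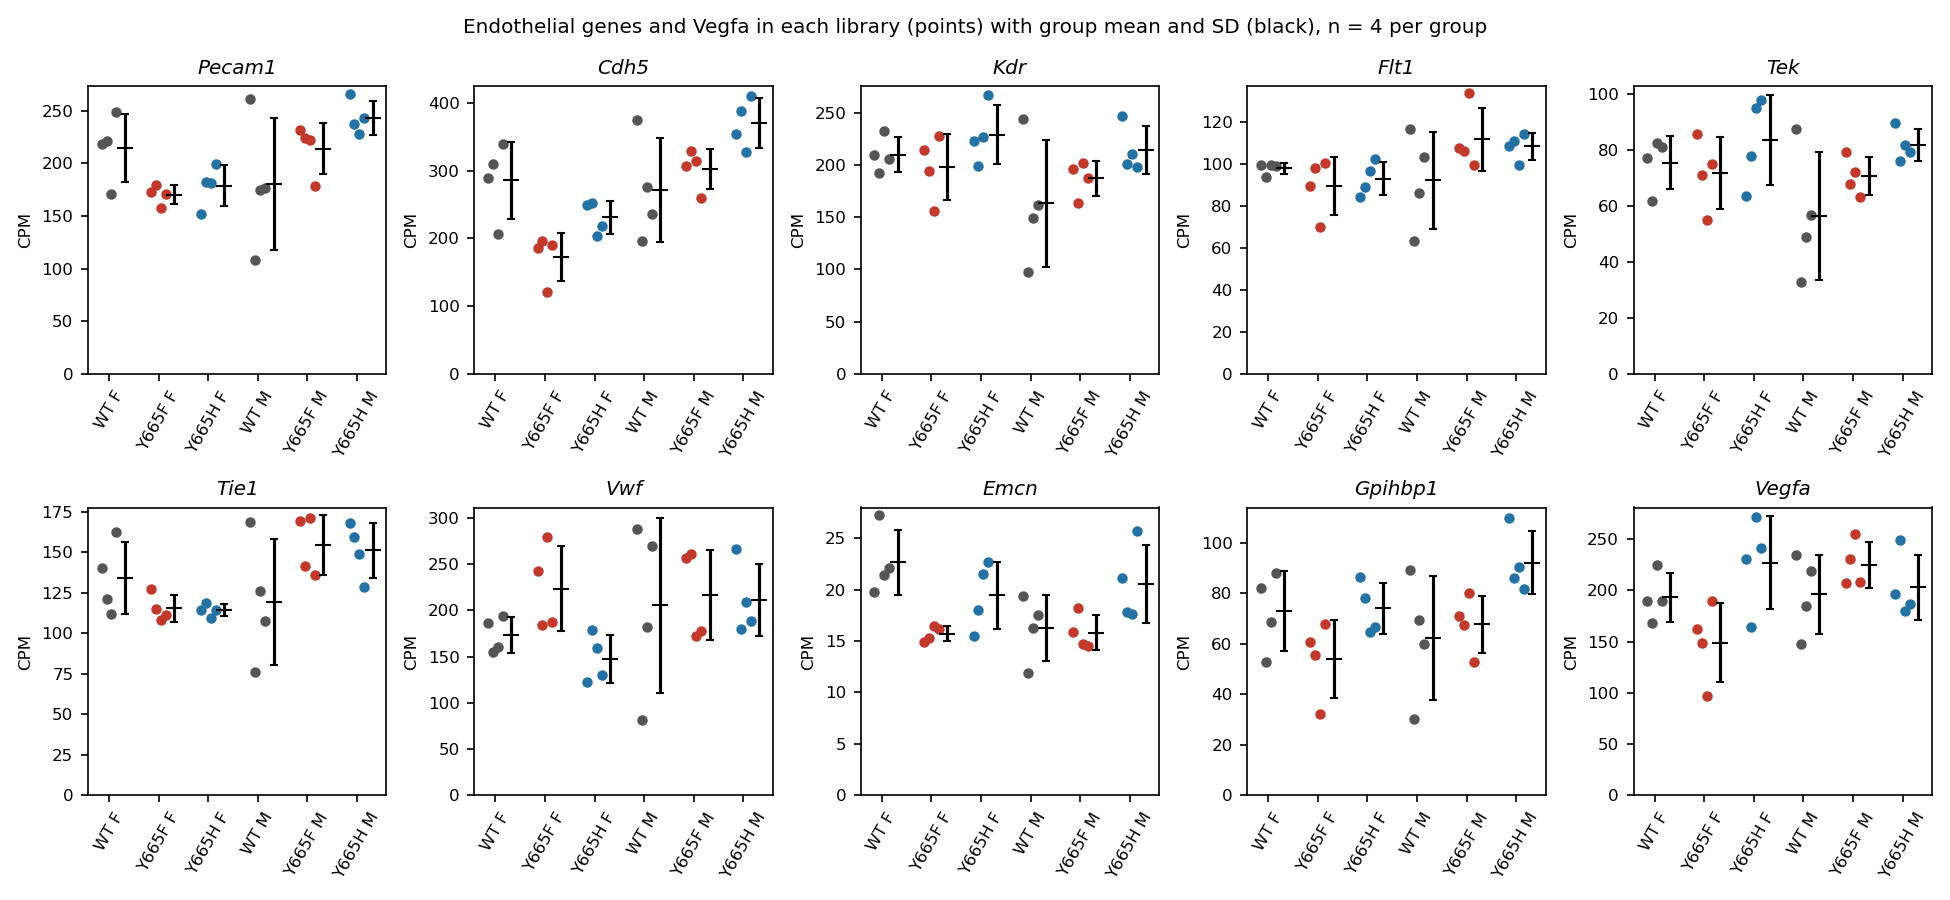
CPM of each of the 10 members in each library (points) by group (WT, Y665F or Y665H; the last letter is F for female and M for male), with the group mean and SD in black, n = 4. Emcn is at 14.9 to 16.5 CPM in the 4 Y665F females, below the 4 WT females at 19.8 to 27.2.

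The ligand is described first. Vegfa was at 189.7, 167.9, 224.8 and 190.1 CPM in WT females 1 to 4. It was at 161.9, 148.4, 97.2 and 189.2 CPM in Y665F females 1 to 4 and at 230.7, 164.1, 271.4 and 241.2 CPM in Y665H females 1 to 4. Y665F female 3 was the lowest of all 24 libraries, and the female groups overlapped. In males, Vegfa lay at 147.9 to 234.2 CPM in WT, 206.8 to 254.6 in Y665F and 180.0 to 248.8 in Y665H, ranges that also overlap.

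Kdr, the signalling receptor for VEGFA, averaged 209.9 ± 16.7, 197.9 ± 31.4 and 228.9 ± 28.2 CPM in WT, Y665F and Y665H females (mean ± SD, n = 4, here and below). In males it averaged 163.2 ± 60.7 in WT, 187.2 ± 16.7 in Y665F and 214.1 ± 22.7 in Y665H. Flt1 was at 97.8 ± 2.79, 89.4 ± 13.8 and 93.0 ± 7.93 CPM in WT, Y665F and Y665H females, and at 92.3 ± 23.0, 111.7 ± 15.1 and 108.2 ± 6.36 in the males. In females, neighbouring group means of both receptors differed by less than the larger of their SDs.

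Tek averaged 75.6 ± 9.49, 71.9 ± 12.8 and 83.6 ± 16.0 CPM in WT, Y665F and Y665H females, and 56.5 ± 23.0, 70.7 ± 6.82 and 81.9 ± 5.74 CPM in males. Its partner Tie1 averaged 134.1 ± 22.4, 115.5 ± 8.34 and 114.2 ± 3.72 CPM in the females and 119.5 ± 38.8, 154.4 ± 18.4 and 151.1 ± 16.9 CPM in the males. Tie1 was thus near equal in the mutant groups of each sex, and WT males spread most for both receptors.

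Among the junction genes, Cdh5 was at 288.5, 309.0, 205.8 and 339.2 CPM in WT females 1 to 4. It was at 185.2, 196.2, 120.2 and 190.7 CPM in Y665F females 1 to 4, and at 249.5, 252.4, 202.9 and 218.6 CPM in Y665H females 1 to 4. The Y665F females lay below every library of the other female groups. In males, Cdh5 averaged 270.8 ± 76.5 CPM in WT, 302.2 ± 30.0 in Y665F and 370.1 ± 36.3 in Y665H. Pecam1 averaged 215.1 ± 32.3, 170.4 ± 8.82 and 178.9 ± 19.5 CPM in WT, Y665F and Y665H females and 180.2 ± 62.6, 214.1 ± 23.9 and 243.5 ± 16.1 CPM in males. Its female groups overlapped.

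Emcn was at 19.8, 27.2, 21.4 and 22.1 CPM in WT females 1 to 4. It was at 14.9, 15.3, 16.5 and 16.2 CPM in Y665F females 1 to 4 and at 15.5, 18.0, 21.5 and 22.7 CPM in Y665H females 1 to 4. All Y665F females lay below all WT females, while the Y665H females overlapped both. In males, Emcn averaged 16.3 ± 3.20 CPM in WT, 15.8 ± 1.73 in Y665F and 20.6 ± 3.80 in Y665H. By group mean the order was WT females, Y665H males, Y665H females, WT males, and then Y665F of both sexes, and no neighbours in that order differed by more than the larger of their SDs.

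Vwf ran the other way in females. It was at 186.9, 154.5, 160.1 and 193.7 CPM in WT females 1 to 4, at 242.9, 184.6, 279.0 and 187.3 CPM in Y665F females 1 to 4, and at 122.7, 178.4, 159.2 and 130.7 CPM in Y665H females 1 to 4. All Y665F females lay above all Y665H females, and WT females overlapped both groups. In males, Vwf averaged 205.4 ± 94.8, 216.9 ± 48.5 and 211.2 ± 39.0 CPM in WT, Y665F and Y665H. Gpihbp1 averaged 72.9 ± 15.7, 54.0 ± 15.4 and 74.0 ± 10.2 CPM in WT, Y665F and Y665H females and 62.2 ± 24.6, 67.7 ± 11.4 and 92.1 ± 12.4 CPM in the males. The Y665H males, at 81.8 to 109.9 CPM, lay above the Y665F males, at 52.6 to 79.9.

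In Y665F females, 9 of the 10 members had negative log2 fold changes against WT females, and Emcn fell. Fold changes are log2 values with a standard error (SE), from edgeR's quasi-likelihood test with TMM scaling, and a gene is called when its p, Benjamini-Hochberg adjusted over all genes tested, is under 0.05. Of 15642 genes tested, 3.33% were called, and 1 of 10 members was, while 6 of 10 had an unadjusted p under 0.05 beside 26.3% of genes. The members' median was -0.41 beside 0.02 over all genes, of which 52.8% were higher. Emcn changed by -0.66 (SE 0.11, adjusted p = 0.0248). Cdh5 had -0.85 (SE 0.21, adjusted p = 0.0633) and Pecam1 -0.47 (SE 0.12, adjusted p = 0.0734). Vegfa had -0.50 (SE 0.20, adjusted p = 0.159) and Gpihbp1 -0.56 (SE 0.24, adjusted p = 0.19). The receptors Kdr, Flt1, Tek and Tie1 had -0.21, -0.26, -0.20 and -0.35, with adjusted p of 0.135 to 0.422. Vwf alone was positive, at 0.23 (SE 0.14, adjusted p = 0.33). Group CPM did not overlap for 2 members, Cdh5 and Emcn, both lower in Y665F. Of tested genes, 22.9% did not overlap, and 2.96% did not overlap and were lower.

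The Emcn call held when any of WT females 1, 2 and 3 or Y665F female 3 was left out. It was lost without WT female 4 (adjusted p = 0.0705), Y665F female 1 (0.0795), Y665F female 2 (0.0542) or Y665F female 4 (0.075), with the fold change at -0.72 to -0.55 throughout. Without Y665F female 3, Cdh5 was called at -0.70 (adjusted p = 0.0476), while Kdr, Tek and Flt1 moved to -0.10, -0.08 and -0.14. Without WT female 3, Pecam1 was called (adjusted p = 0.0447). The call of Emcn was kept by DESeq2, which added Cdh5 and Pecam1 and called 13% of all genes.

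**Figure D3:**
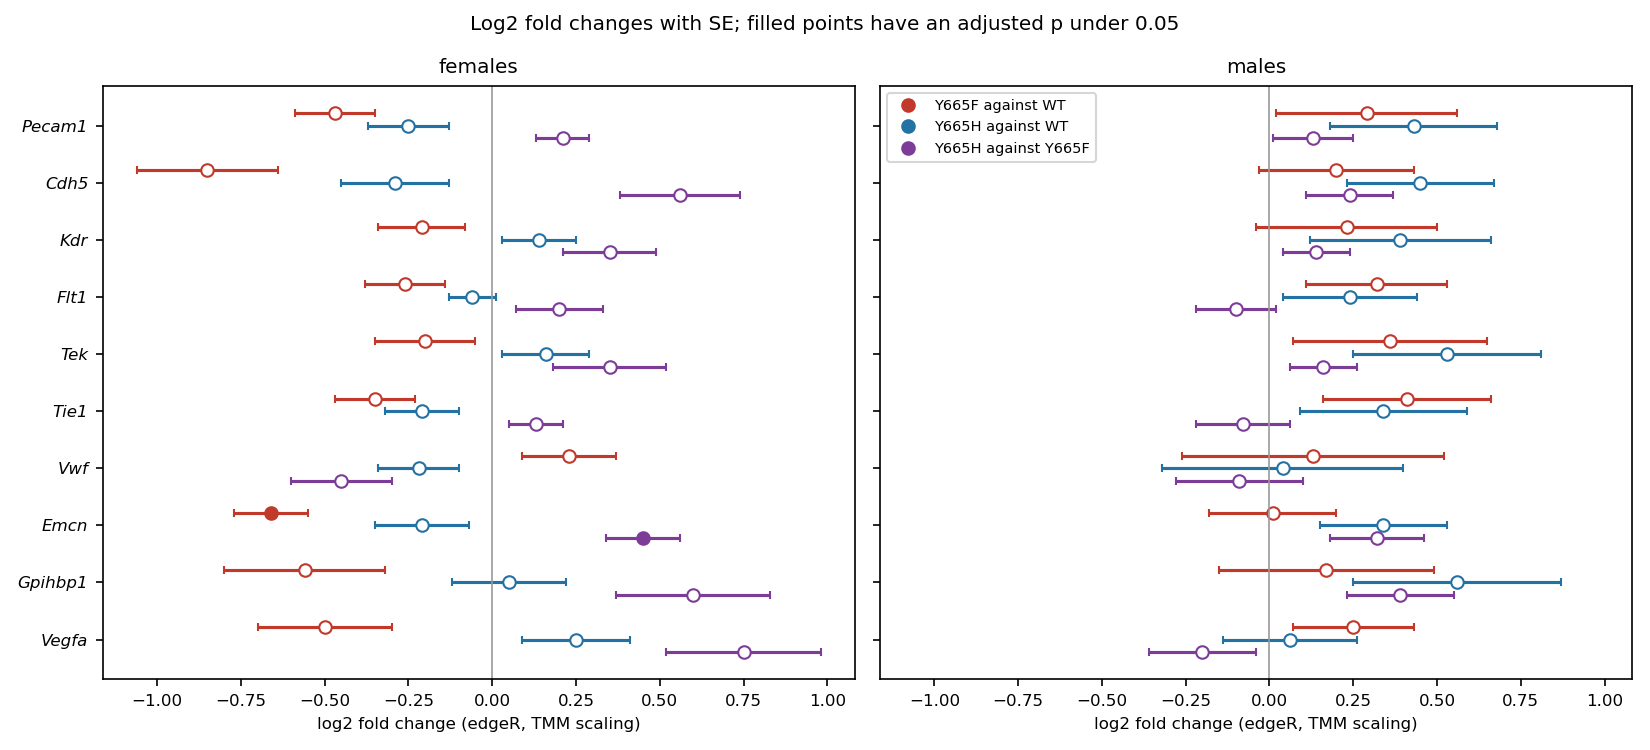
Log2 fold changes of the 10 members (points, with SE bars) for Y665F against WT, Y665H against WT and Y665H against Y665F, in females (left) and males (right); filled points have an adjusted p under 0.05. In females Y665F against WT lies below 0 for all members but Vwf, only Emcn is filled, and in males all members lie above 0 in both comparisons with WT (Emcn in Y665F turned to -0.05 under library totals).

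A wider set of 22 other pan-endothelial genes, chosen by name, had only negative fold changes in Y665F against WT females, with a median of -0.43 (20 negative and a median of -0.31 without Y665F female 3). Of these, 3 were called lower, beside 3.33% of all genes called in either direction. Unadjusted p were under 0.05 for 13 of the 22, beside 26.3% of all genes. DESeq2 called 8, beside 13% of all genes. Nos3, the endothelial nitric oxide synthase, averaged 109.5 ± 19.3 CPM in WT females and 58.0 ± 14.5 in Y665F females (log2 fold change -1.04, SE 0.20, adjusted p = 0.036). Aplnr, the apelin receptor, averaged 50.6 ± 13.3 and 25.1 ± 5.08 CPM (-1.14, SE 0.22, adjusted p = 0.0363). Rasip1, which acts in vessel lumen formation, averaged 58.3 ± 11.1 and 37.3 ± 4.84 CPM (-0.77, SE 0.16, adjusted p = 0.0449). With library totals in place of TMM, which moved the median of all genes from 0.02 to 0.15, 19 of the 22 were negative, with a median of -0.30. With 1 library left out, the Nos3 call held only without Y665F female 2 or 3 (adjusted p up to 0.107 otherwise). That of Aplnr held only without WT female 3 or Y665F females 2 or 3 (up to 0.105), and that of Rasip1 only without WT female 3 or Y665F female 3 (up to 0.117).

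**Figure D4:**
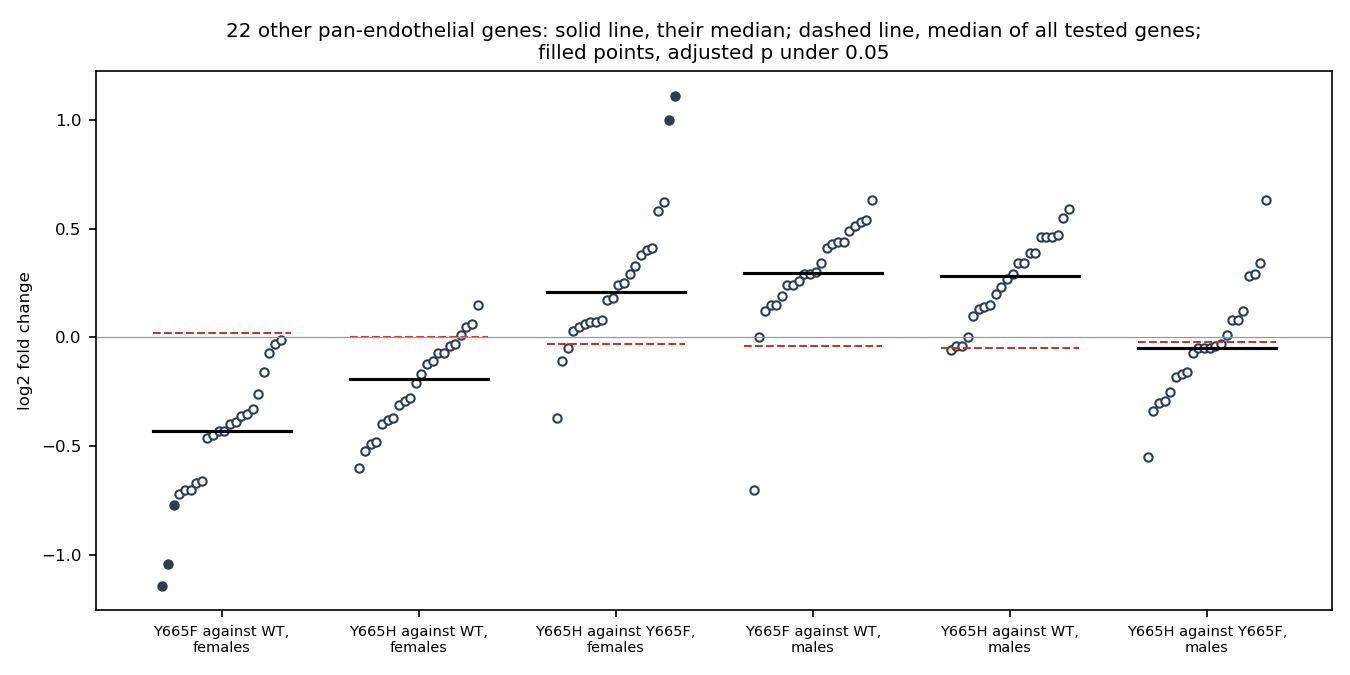
Log2 fold changes of 22 other pan-endothelial genes (points, ordered within each of 6 comparisons), with their median (solid line) and that of all tested genes (dashed line); filled points have an adjusted p under 0.05. Medians lie at -0.43 and -0.19 for Y665F and Y665H against WT in females and at 0.30 and 0.28 in males.

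The other VEGF genes followed the sign of Vegfa in Y665F females. All 7 of the VEGF ligands and co-receptors in the files were negative, with a median of -0.39. None was called by edgeR, 4 had an unadjusted p under 0.05, and 4 were called by DESeq2. Vegfb, a ligand of FLT1, had -0.66 (SE 0.17, adjusted p = 0.0674), Vegfc, a lymphatic growth factor, -0.57 (SE 0.18, adjusted p = 0.102), Nrp1, a VEGF co-receptor, -0.39 (SE 0.13, adjusted p = 0.11) and Pgf -0.30 (SE 0.31, adjusted p = 0.557). Of the 7 angiopoietin and TIE regulators, 6 were negative with a median of -0.28, none was called by edgeR or DESeq2, and 1 had an unadjusted p under 0.05. Angpt1, the activating TIE2 ligand, had -0.31, Angpt2, its context-dependent antagonist, -0.28, and Ptprb, the phosphatase that restrains TIE2, -0.29, with adjusted p of 0.186 to 0.282.

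Of 7 tested genes of lipid handling at the capillary wall, 7 were negative (median -0.36). None was called by edgeR, 2 had an unadjusted p under 0.05, and DESeq2 called Lmf1. Lpl, the lipase that GPIHBP1 carries, averaged 7408.5 ± 754.3 CPM in WT females and 5919.0 ± 2035.7 in Y665F females (-0.45, SE 0.28, adjusted p = 0.338). Pericyte and smooth muscle genes were split in sign, with 4 positive and 7 negative. Unadjusted p were under 0.05 for 5 of these 11 genes, beside 26.3% of all genes, and DESeq2 called 5, beside 13%. edgeR called only Pdgfrb, the pericyte receptor, which fell by 0.54 (SE 0.11, adjusted p = 0.0417). That call was lost under library totals (adjusted p = 0.0519) and in a fit over all 24 libraries (0.0569). With 1 library left out it held only without WT female 3 or Y665F female 3 (up to 0.108 otherwise). Of the arterial and Notch genes 8 of 11 were negative (median -0.20), of the venous genes 3 of 5 (-0.13) and of the lymphatic genes 4 of 5 tested (-0.66). No gene of these 3 lists was called by edgeR, unadjusted p were under 0.05 for 4, 1 and 1 of them, and DESeq2 called 2, 0 and 1.

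The list of hypoxia-inducible factor (HIF) genes and targets, in which Ppargc1a was also counted, had a median of -0.09, with 5 of 14 positive. Ankrd37, a HIF target, rose from 0.542 ± 0.156 to 1.65 ± 0.445 CPM (1.47, SE 0.27, adjusted p = 0.0297), and with 1 library left out this call held only without Y665F female 3 (adjusted p up to 0.0935 otherwise). Hif1a had -0.07 (SE 0.16, adjusted p = 0.813), and Epas1, the HIF subunit abundant in endothelium, had -0.56 (SE 0.18, adjusted p = 0.106). The HIF list thus did not share 1 sign with Vegfa.

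Markers of other cells also differed between these groups. The 9 T and NK cell markers summed to 30.3 to 42.0 CPM in Y665F females and 8.98 to 12.5 in WT females, and 7 of the 9 were called higher. The 7 B cell markers summed to 17.6 to 27.9 and 6.97 to 11.0 CPM, with 2 called higher, and the 8 macrophage markers to 1027.5 to 1586.1 and 709.4 to 1002.4 CPM, with 3 at an unadjusted p under 0.05. Adipocyte markers summed to 11610.7 to 19250.3 CPM in Y665F females and 17739.9 to 23098.7 in WT females, and all 12 had negative fold changes with a median of -0.41, equal to the members' own median. The 6 megakaryocyte and platelet markers, relevant to Vwf and Pecam1, which platelets also carry, summed to 31.2 to 45.5 and 19.9 to 32.8 CPM. Brown or beige adipocyte markers summed to 4.76 to 14.3 CPM against 34.3 to 80.9, and skeletal muscle markers to 33.2 to 179.1 against 96.7 to 1087.2. The mammary or other epithelial markers reached 1226.0 CPM in Y665F female 3, against at most 113.9 in WT females. The part of these markers in the endothelial values was not tested.

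Between the mutants in females, 9 of the 10 members were higher in Y665H than in Y665F, with a median of 0.35, and Emcn rose. Of 15493 genes tested, 17.4% were called, with a median of -0.03 and 46.2% higher. The 1 of 10 members called is a share below that background. Unadjusted p were under 0.05 for 7 of 10 members, beside 33.4% of genes. DESeq2 called 4 of 10, Cdh5, Vwf, Emcn and Vegfa, beside 25.2% of genes. Emcn had 0.45 (SE 0.11, adjusted p = 0.025), Vegfa 0.75 (SE 0.23, adjusted p = 0.0564), Cdh5 0.56 (SE 0.18, adjusted p = 0.0648) and Gpihbp1 0.60 (SE 0.23, adjusted p = 0.11). Kdr and Tek both had 0.35, Pecam1 0.21, Flt1 0.20 and Tie1 0.13, with adjusted p of 0.122 to 0.307. Vwf was again opposite, at -0.45 (SE 0.15, adjusted p = 0.0786). Group CPM did not overlap for Cdh5, higher in Y665H, and for Vwf, lower, which makes 2 of 10 members beside 28.1% of tested genes. This comparison shares its Y665F libraries with that of Y665F and WT.

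The Emcn difference was not called under library totals, where it was 0.30 (adjusted p = 0.118), nor in a fit over all 24 libraries (adjusted p = 0.0593). It was also lost without Y665F female 1 (0.071), 2 (0.0535) or 4 (0.0593), or Y665H female 3 (0.0671) or 4 (0.0539). Vegfa was called in the fit over all 24 libraries, by DESeq2, and without Y665F female 3 (adjusted p = 0.0496) or Y665H female 2 (0.0383). Cdh5 was called without Y665F female 3 (adjusted p = 0.0363). Library totals moved the median of all genes from -0.03 to -0.18, and there Vwf was the called member and Tie1 had -0.02.

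Nos3 and Aplnr were higher in Y665H than in Y665F females in every alternative run. Nos3 averaged 105.3 ± 5.89 CPM in Y665H females (1.00, SE 0.18, adjusted p = 0.00775) and Aplnr 49.0 ± 4.44 (1.11, SE 0.16, adjusted p = 0.00336). edgeR called these 2 of the 22 pan-endothelial genes, a share below the 17.4% of all genes. Of the 22, 19 were positive with a median of 0.21. The calls of Angpt1, Lmf1 and Pdpn given below were 1 of 7, 1 of 7 and 1 of 5 tested genes of their lists. Under library totals 13 were positive, with a median of 0.06, and without Y665F female 3 15 were, with a median of 0.15. Angpt1 rose from 12.8 ± 1.66 CPM in Y665F to 23.8 ± 8.01 in Y665H females (1.03, SE 0.22, adjusted p = 0.0158), a call lost without Y665F female 1 (adjusted p = 0.0511) and in the fit over all 24 libraries (0.114). Its antagonist Angpt2 had -0.27 (adjusted p = 0.457) and Ptprb 0.01 (adjusted p = 0.945). Of the VEGF genes, Nrp1 had 0.39 (SE 0.13, adjusted p = 0.0787), Vegfb 0.46 (0.181), Vegfc 0.34 (0.211) and Pgf -0.36 (0.404), with adjusted p in parentheses after the first.

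Of 11 pericyte and smooth muscle genes, 3 were called, all higher in Y665H, beside 17.4% of all genes called in either direction. Kcnj8, a potassium channel of pericytes, averaged 17.3 ± 4.28 CPM in Y665F and 27.3 ± 2.03 in Y665H females (0.81, SE 0.17, adjusted p = 0.0155), and Cspg4, the pericyte proteoglycan NG2, 94.5 ± 25.0 and 151.4 ± 19.1 CPM (0.84, SE 0.18, adjusted p = 0.0172). Both calls held with any library left out. Pdgfrb rose by 0.37 (SE 0.09, adjusted p = 0.0277), a call lost under library totals (0.109), in the fit over all 24 libraries (0.114) and without Y665F female 1 or 2 or Y665H female 1, 2 or 3 (up to 0.0675). In the HIF list 4 genes were called higher and 1 lower of 14, beside 17.4% of all genes called in either direction. The glycolytic enzyme Pgk1 averaged 135.4 ± 5.98 and 179.2 ± 4.33 CPM (0.55, SE 0.07, adjusted p = 0.00239) and Ldha 709.6 ± 121.7 and 1195.7 ± 76.7 CPM (0.89, SE 0.15, adjusted p = 0.00649). Ankrd37 fell to 0.427 ± 0.124 CPM (-1.80, SE 0.26, adjusted p = 0.00394). These 3 calls held in every alternative run, while those of Egln1 and Ppargc1a did not. That of Egln1 was lost under library totals (adjusted p = 0.24) and in the fit over all 24 libraries (0.16). It was also lost without Y665F female 1 (0.0555) or Y665H female 1 (0.0526). That of Ppargc1a was lost without Y665F female 1, 2 or 4 or Y665H female 1 or 4 (0.0612 to 0.0735). Epas1 had 0.48 (SE 0.19, adjusted p = 0.12) and Hif1a -0.01 (adjusted p = 0.953).

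At the capillary wall, Lmf1, which matures lipoprotein lipase, averaged 17.3 ± 1.07 CPM in Y665F and 20.7 ± 1.31 in Y665H females (0.41, SE 0.10, adjusted p = 0.0274), and Lpl had 0.37 (SE 0.28, adjusted p = 0.37). The Lmf1 call was lost under library totals (0.0635) and without Y665F female 1 or 4 or Y665H female 1, 2 or 3 (0.0631 to 0.0745). Pdpn, a lymphatic membrane protein also made by stromal cells, averaged 35.3 ± 3.71 and 24.6 ± 2.06 CPM (-0.38, SE 0.09, adjusted p = 0.0272), a call lost in the fit over all 24 libraries (0.273) and without Y665F female 1 or 2 or Y665H female 1, 3 or 4 (0.0524 to 0.0755). T and NK cell markers summed to 5.81 to 20.0 CPM in Y665H females, below the 30.3 to 42.0 of Y665F females, while brown or beige adipocyte markers summed to 33.7 to 196.4 CPM and adipocyte markers to 21682.2 to 24896.2. Of these lists, 6 of 9 T and NK cell genes were called lower in Y665H, and 4 of 5 brown or beige and 2 of 12 adipocyte genes higher. B cell markers summed to 6.93 to 11.0 CPM in Y665H and 17.6 to 27.9 in Y665F females (5 of 7 called lower), and macrophage markers to 572.4 to 822.1 and 1027.5 to 1586.1 (4 of 8 called lower). Skeletal muscle markers summed to 26.1 to 1917.5 and 33.2 to 179.1 CPM, with a median of 4.95 and 7 of 11 called higher. The part of these markers in the difference was not tested.

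Against WT females, Y665H females showed no called member. Of 15469 genes tested, 3.34% were called, and edgeR and DESeq2 each called 0 of 10 members, with 0 at an unadjusted p under 0.05, beside 23.8% of genes. Fold changes lay between -0.29 (SE 0.16) for Cdh5 and 0.25 (SE 0.16) for Vegfa, with 4 positive, 6 negative and a median of -0.13. Pecam1 had -0.25 (SE 0.12), Tie1 -0.21 (SE 0.11), Vwf -0.22 (SE 0.12) and Emcn -0.21 (SE 0.14), and Kdr, Flt1, Tek and Gpihbp1 lay between -0.06 and 0.16. Adjusted p ran from 0.229 to 0.889. The groups overlapped for all 10 members, while 13.3% of tested genes did not overlap.

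Some genes of the related lists were called in that comparison, where 3.34% of all genes were. They were 1 of 11 arterial and Notch genes, 1 of 11 pericyte and smooth muscle genes and 2 of 14 HIF genes. The VEGF, angiopoietin, pan-endothelial, venous, lymphatic and capillary-wall lists had no edgeR call. Jag1, a Notch ligand, averaged 111.6 ± 5.13 CPM in WT and 82.9 ± 6.95 in Y665H females (-0.42, SE 0.08, adjusted p = 0.0308). Kcnj8 had 0.52 (SE 0.10, adjusted p = 0.0304), Pgk1 0.44 (SE 0.08, adjusted p = 0.031) and Ldha 0.52 (SE 0.11, adjusted p = 0.0428). With 1 library left out, Jag1 was called only without WT female 3 (adjusted p up to 0.104 otherwise), Kcnj8 and Ldha only without WT female 2 or 3 and, for Kcnj8, Y665H female 2 (up to 0.102 and 0.139), and Pgk1 only without WT female 2 or 3 (up to 0.114). In the fit over all 24 libraries, Jag1, Kcnj8 and Ldha were not called (adjusted p of 0.167 to 0.235), and with no filter on low counts Ldha was not (0.0516). Angpt1 had 0.72 (SE 0.24, adjusted p = 0.118), Angpt2 -0.55 (SE 0.21, adjusted p = 0.167) and Ptprb -0.27 (SE 0.09, adjusted p = 0.128). The 22 pan-endothelial genes had a median of -0.19, with 18 negative and none called by edgeR. Unadjusted p were under 0.05 for 6, a share near the 23.8% of all genes, and DESeq2 called 2, beside 11.5% of all genes. They were also under 0.05 for 6 of 7 angiopoietin and TIE regulators and 6 of 11 arterial and Notch genes. DESeq2 called 3 and 4 genes of these lists. For 4 of 11 pericyte and smooth muscle genes and 6 of 14 HIF genes they were under 0.05, and DESeq2 called 1 and 5. In the VEGF, venous, lymphatic and capillary-wall lists, 1, 0, 1 and 0 genes had such p, and DESeq2 called the same numbers.

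In males, all 10 members had positive fold changes against WT in both mutants (Emcn in Y665F turned to -0.05 under library totals), and none was called. edgeR called 0 of 16240 genes (0%) for Y665F and 0 of 16406 (0%) for Y665H, with 17.1% and 11.4% at an unadjusted p under 0.05. Among the members, 0 of 10 had an unadjusted p under 0.05 and DESeq2 called 0 of 10, in either comparison. The members' medians were 0.24 and 0.36, beside -0.04 and -0.05 over all genes. For Y665F, values ran from 0.01 (SE 0.19) for Emcn to 0.41 (SE 0.25) for Tie1, with adjusted p of 0.406 to 0.985. For Y665H, they ran from 0.04 (SE 0.36) for Vwf to 0.56 (SE 0.31) for Gpihbp1, with adjusted p of 0.402 to 0.962. Vegfa had 0.25 (SE 0.18) and 0.06 (SE 0.20). The groups overlapped for all 10 members in both, while 8.85% and 3.6% of tested genes did not overlap. Both comparisons share the WT males.

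These male values depend on which WT libraries were used. Without WT male 1, 570 genes were called for Y665F and 1 for Y665H, without WT male 2 none for either, and the fit over all 24 libraries called 2261 and 203. No member was called in any of these fits. Without WT male 2, the library with the highest epididymis sum, the medians were 0.11 and 0.22, with 7 and 8 of 10 members positive. Without WT male 1, they were 0.46 and 0.67, and the lowest adjusted p, for Tek, were 0.0915 in Y665F and 0.0702 in Y665H. The 22 pan-endothelial genes had medians of 0.30 and 0.28 with 20 and 18 positive. Without WT male 2 these medians were 0.19 and 0.13 (18 and 16 positive), and without WT male 1 they were 0.50 and 0.53 (21 and 22 positive). No pan-endothelial gene was called by edgeR or DESeq2 in either comparison, and 2 and 0 had an unadjusted p under 0.05. The 7 VEGF and angiopoietin partners named above had adjusted p of 0.352 to 0.868 for Y665F and 0.402 to 0.888 for Y665H. Lpl had 0.32 (SE 0.40) and 0.69 (SE 0.35).

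Between the mutants in males, 1.03% of 15986 genes were called and edgeR and DESeq2 each called 0 of 10 members, with 1 at an unadjusted p under 0.05, a share below the 18% of all genes. That member was Gpihbp1, at 0.39 (SE 0.16, adjusted p = 0.249), and it was also the 1 member whose groups did not overlap, where 12.5% of tested genes did not overlap. Emcn had 0.32 (SE 0.14, adjusted p = 0.287), Cdh5 0.24 (SE 0.13, adjusted p = 0.373) and Vegfa -0.20 (SE 0.16, adjusted p = 0.551). The other 6 members lay between -0.10 and 0.16. Angpt1 had 0.60 (SE 0.33, adjusted p = 0.376), beside the 1.03 of the female comparison, and Hif1a 0.38 (SE 0.11, adjusted p = 0.129).

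Within WT, 9 of the 10 members were lower in males than in females, with a median of -0.33, and none was called by edgeR, although 13.1% of 15865 genes were. Emcn had -0.62 (SE 0.19, adjusted p = 0.0585) and was the 1 member with an unadjusted p under 0.05 (33.5% of genes). It was also the 1 member called by DESeq2 (25.3% of genes), and its groups did not overlap (25.2% of tested genes did not overlap). Tek had -0.56 (SE 0.28, adjusted p = 0.2), Kdr -0.50 (SE 0.26, adjusted p = 0.211) and Vwf 0.09 (SE 0.35, adjusted p = 0.867). Without WT male 1, Kdr (-0.80, adjusted p = 0.019), Tek (-0.89, adjusted p = 0.0167) and Emcn (-0.75, adjusted p = 0.0244) were called and the members' median was -0.59. That fit called 30.7% of all genes, so 3 of 10 members is near its background share. Without WT male 2, none was called beside 9.9% of genes, and the median was -0.13. Library totals moved the median of all genes from 0.04 to 0.22, and Vegfa to 0.05.

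Several genes of the related lists were called between the WT sexes, where 13.1% of all genes were. They were 1 of 7 VEGF ligands and co-receptors, 1 of 7 angiopoietin and TIE regulators, 1 of 22 pan-endothelial genes and 1 of 11 arterial and Notch genes. In the HIF list 3 of 14 were called, and the venous, lymphatic and capillary-wall lists had no edgeR call. Pgf, a ligand of FLT1, averaged 15.7 ± 12.6 CPM in WT males and 3.41 ± 1.40 in WT females (2.06, SE 0.55, adjusted p = 0.0455), and Angpt4 8.98 ± 4.85 and 1.02 ± 0.205 CPM (2.99, SE 0.39, adjusted p = 0.00598). The Angpt4 call held in every alternative run, and with 1 library left out that of Pgf held only without WT male 1 or 4 (adjusted p up to 0.117 otherwise), and it was lost with no filter on low counts (0.0593). Sox7, an endothelial transcription factor, rose by 1.43 (SE 0.34, adjusted p = 0.0323) and Efnb2, the arterial ephrin ligand, by 0.56 (SE 0.10, adjusted p = 0.0166). With 1 library left out, Sox7 was called only without WT male 1, 2 or 4 (up to 0.0949 otherwise) and Efnb2 only without a WT male (up to 0.0703 otherwise). In the pericyte and smooth muscle list, 5 of 11 genes were called lower in males, with Des, Cspg4 and Tagln at the smallest p. Des had -2.43 (SE 0.43, adjusted p = 0.0155), lost without WT female 2 or 3 (up to 0.0555). Cspg4 had -1.27 (SE 0.23, adjusted p = 0.0168), lost without WT male 3 or WT females 2, 3 or 4 (up to 0.0634). Tagln had -1.95 (SE 0.37, adjusted p = 0.0197), lost without WT females 2, 3 or 4 (up to 0.0645) and in the fit over all 24 libraries (0.0684). Epididymis markers were 8 of 8 above 0 in WT males 2, 3 and 4. Skeletal muscle markers summed to 21.6 to 28.5 CPM in WT males and 96.7 to 1087.2 in WT females, with 9 of 12 called lower in males. Brown or beige adipocyte markers summed to 3.42 to 9.98 and 34.3 to 80.9 CPM (4 of 4 tested called lower), and epithelial markers to 39.2 to 1317.8 and 16.3 to 113.9 CPM (4 of 9 called higher). The part of these markers in the sex difference was not tested.

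The genotype effect was compared between sexes by an interaction over 16 libraries, as the male minus the female fold change. For Y665F, 9 of 10 members were positive with a median of 0.69 beside -0.06 over all genes. edgeR called 0 of 16732 genes (0%), with 21.8% at an unadjusted p under 0.05. Among the members, 6 had an unadjusted p under 0.05 and DESeq2 called 1, Cdh5, beside 7% of all genes. Cdh5 had 1.05 (SE 0.33, adjusted p = 0.138), Pecam1 0.76 (SE 0.31, adjusted p = 0.188), Vegfa 0.75 (SE 0.28, adjusted p = 0.163), Tie1 0.75 (SE 0.30, adjusted p = 0.176) and Emcn 0.67 (SE 0.22, adjusted p = 0.148). Vwf had -0.10 (SE 0.43, adjusted p = 0.92). Without WT male 1, 1686 genes (9.84%) and 5 members were called, Pecam1 at 1.04 (adjusted p = 0.0248), Cdh5 at 1.29 (0.0229), Tek at 0.90 (0.0431), Tie1 at 1.01 (0.0251) and Emcn at 0.80 (0.0356). Without WT male 2, 2 genes and 0 members were called, and the members' median was 0.52.

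For Y665H, 9 of 10 members were positive with a median of 0.45, beside a median of -0.09 and 42.0% positive over all genes. Of 16827 genes, 0.0119% were called. edgeR and DESeq2 called 0 of 10 members, and 3 had an unadjusted p under 0.05, beside 18.3% of genes. Cdh5 had 0.74 (SE 0.29, adjusted p = 0.216), Pecam1 0.69 (SE 0.29, adjusted p = 0.244) and Emcn 0.55 (SE 0.24, adjusted p = 0.247), and Vegfa had -0.18 (SE 0.26, adjusted p = 0.718). Without WT male 1, 1844 genes (10.7%) and 4 members were called, Pecam1 at 1.00 (adjusted p = 0.0162), Cdh5 at 1.01 (0.0221), Tek at 0.75 (0.0491) and Tie1 at 0.84 (0.0383). Without WT male 2, none was, and the median was 0.25. Of the 22 pan-endothelial genes, 21 were positive in each interaction, with medians of 0.78 and 0.50. None was called by edgeR in either, and 13 and 6 had an unadjusted p under 0.05 (21.8% and 18.3% of all genes). DESeq2 called 6 and 0 of the 22, beside 7% and 4.16% of all genes. The 2 interactions share the WT libraries.

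**Figure D5:**
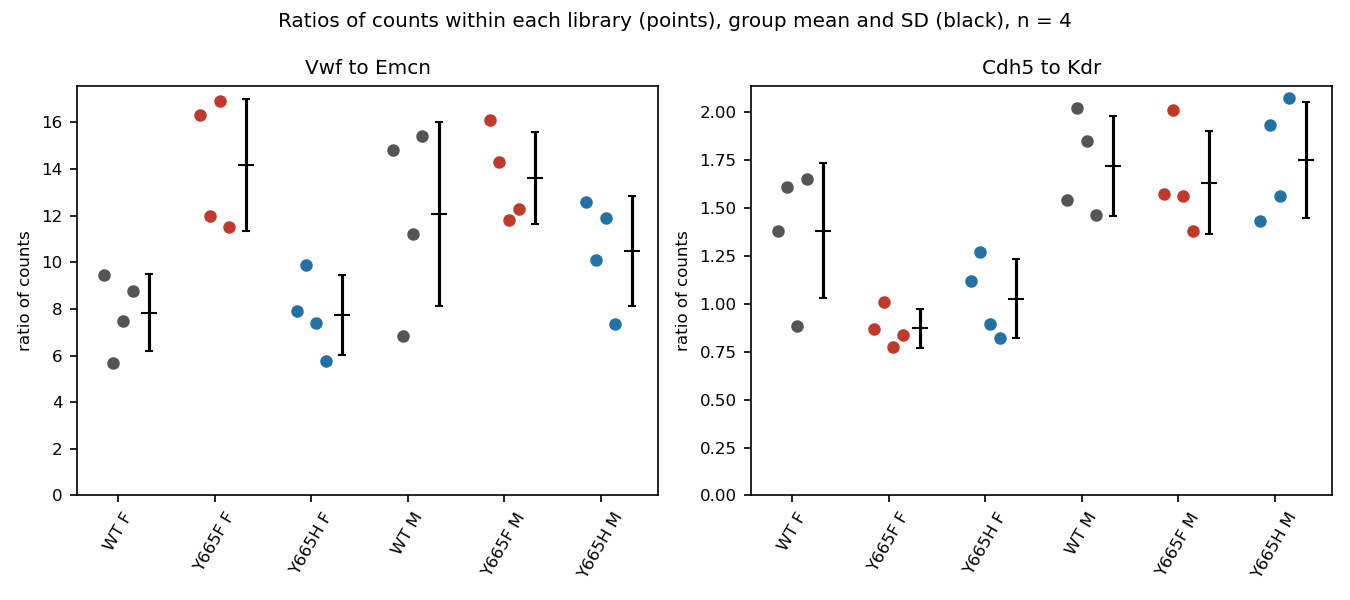
Ratio of Vwf to Emcn counts (left) and of Cdh5 to Kdr counts (right) within each library (points) by group (last letter F for female, M for male), with group mean and SD in black, n = 4. The Vwf to Emcn ratio is 11.5 to 16.9 in Y665F females and at most 9.89 in the other female groups.

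Ratios within a library do not depend on the scaling between libraries. The pairs below were chosen after their values were seen, so no test is given. The ratio of Vwf to Emcn counts was 7.84 ± 1.66, 14.2 ± 2.82 and 7.73 ± 1.71 in WT, Y665F and Y665H females. All Y665F females, at 11.5 to 16.9, lay above the other female groups, whose highest value was 9.89. In males the ratio was 12.1 ± 3.94, 13.6 ± 1.97 and 10.5 ± 2.35 in WT, Y665F and Y665H, so males of every genotype had means between those of WT and Y665F females. Cdh5 to Kdr was 1.38 ± 0.352, 0.871 ± 0.10 and 1.03 ± 0.207 in WT, Y665F and Y665H females and 1.72 ± 0.263, 1.63 ± 0.268 and 1.75 ± 0.302 in males. Flt1 to Kdr, the 2 VEGFA receptors, was 0.467 ± 0.0273, 0.453 ± 0.0364 and 0.408 ± 0.0328 in females and 0.585 ± 0.0788, 0.598 ± 0.0678 and 0.510 ± 0.0655 in males. Vegfa to Kdr, the ligand against its signalling receptor, was 0.873 to 0.967 in WT females and 0.625 to 0.830 in Y665F females, which do not overlap. Y665H females, at 0.824 to 1.20, overlapped both, and the means in males were 1.27 ± 0.236, 1.21 ± 0.158 and 0.957 ± 0.198 in WT, Y665F and Y665H.

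Across the 24 libraries, each gene with a mean of at least 1 CPM was set against the mean of the 9 endothelial members by the root mean square difference of centred log2 CPM. The 3 closest of 14828 genes were Tcf4 (0.118), 9430020K01Rik (0.123) and Ets1 (0.124), where the median gene had 0.419. Among the members themselves, Pecam1 was closest at 0.095 and Vwf furthest at 0.345. For Vegfa the 3 closest genes were Fbxl4 (0.217), Zfp395 (0.223) and Cry2 (0.225), with a median of 0.472. The member closest to Vegfa was Flt1 (0.232) and the furthest Vwf (0.543). These measures share the libraries and include the WT males, so they describe how alike the profiles were and carry no test.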

How the data were processed

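Total RNA-seq was available for 24 libraries of mouse adipose tissue, mapped to genotype, sex and replicate by their titles. Per the labels' protocols, RNA was extracted with an RNeasy kit, ribosomal RNA was removed and stranded paired-end libraries were made. The authors deposited raw read counts per gene symbol, 1 file per library. Per the submitters' processing notes, FastQC 0.11.9, Trimmomatic 0.36, STAR, SAMtools 1.9, Picard 2.9.2 and HTSeq 0.9.1 and the build mm10 were named. The annotation and the strand setting are not given in the sources used here. The 5 entries that name no gene held 24.8 to 39.7% of a library's counts and were left out. In females this share was 27.9 to 30.3% in WT, 32.5 to 35.9% in Y665F and 24.8 to 29.9% in Y665H. In males it was 29.9 to 33.2%, 29.6 to 39.7% and 25.2 to 30.8%. Gene counts ran from 34.6 M to 38.6 M in WT, 27.3 M to 33.8 M in Y665F and 32.2 M to 38.7 M in Y665H females. The part of these differences in the fold changes was not tested. No pair of libraries in a group was alike within sampling noise (chi-square per degree of freedom at least 16.4 over 36 pairs).

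Counts were tested with edgeR 4.0.16 (limma 3.58.1, R 4.3.3): TMM scaling, the filterByExpr filter, quasi-likelihood F test and Benjamini-Hochberg adjustment over all tested genes, on 8 libraries for each of 7 contrasts and 16 for each of 2 interactions. SE is the fold change divided by the root of F. CPM were computed from gene counts without TMM factors, so CPM ratios and fold changes can differ. Marker means used a pseudocount of 1, and likeness used TMM log2 CPM with a prior count of 1. Alternatives were DESeq2 1.42.0, size factors, library totals, no filter, a fit over 24 libraries, a replicate block and leaving out each library. The code was tested on simulated data. Gene positions and exon lengths came from GENCODE M21 and promoter bases from RefSeq GRCm38.p6.

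The members and the gene lists were chosen with earlier results of these data known. Text names the 10 members, 10 partners (Vegfb, Vegfc, Pgf, Nrp1, Angpt1, Angpt2, Ptprb, Lpl, Hif1a, Epas1), at most 3 called genes by smallest p per list and contrast, and the 3 most alike genes. Egln1 and Ppargc1a, of the HIF list, are named as well. Angptl8, Trac and the symbol Vegfd matched no row of the files.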

Additional observations from a re-analysis of the deposited data

Results flagged for a closer look

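Within each of the 60 combinations of a member and a group of 4 libraries, the gap of the extreme library to its neighbour was compared with the range of the group, and 3 exceeded Dixon's 95% critical value. Chance alone flags about 1 in 20 groups. Pecam1 was at 178.7 CPM in Y665F male 4, below the other Y665F males at 222.7 to 231.3. Cdh5 was at 120.2 CPM in Y665F female 3, below the other Y665F females at 185.2 to 196.2. Flt1 was at 93.6 CPM in WT female 2, below the other WT females at 99.1 to 99.3.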

How the results depend on the processing

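Of 540 fits of a member under another setting with all libraries kept, 517 kept their direction and their side of the threshold, as did 834 of 880 fits with 1 library left out. Emcn was the only member called, so most of these fits had no call to lose. Its calls between Y665F and WT females and between the mutant females each had 6 fits of the first kind and 8 of the second. Together they were lost in 3 fits of the first kind and 9 of the second. Between 0 and 2 members were called in Y665F against WT females with 1 library left out, 3 by DESeq2, 2 in the fit over 24 libraries and 2 with the replicate block, against 1 as reported. For Y665H against Y665F females, where 1 was reported, these were 0 to 3 and 4 by DESeq2. There library totals called Vwf, the fit over 24 libraries Vegfa and the block Cdh5, each in place of Emcn. In WT males against WT females, with 0 reported, 0 to 3 were called with 1 library left out, 1 by DESeq2 and 3 in the fit over 24 libraries. With 1 library left out, 0 to 5 were called in the Y665F interaction (1 by DESeq2) and 0 to 4 in the Y665H interaction, against 0 reported in both. Over all genes, DESeq2 called 13% and 25.2% in the first 2 of these comparisons, 25.3% between the WT sexes and 7% in the Y665F interaction. The fit over 24 libraries called 34.9% between the WT sexes. The cause of these changes was not tested.

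Signs reversed under library totals for Emcn in Y665F against WT males (-0.05), Tie1 in Y665H against Y665F females (-0.02) and Vegfa in WT males against females (0.05). With 1 library left out, Y665F against WT males ran from -0.12 to 0.37 for Vwf, -0.10 to 0.13 for Emcn and -0.04 to 0.43 for Gpihbp1. Y665H against WT ran from -0.08 to 0.15 for Gpihbp1 in females, and in males from -0.21 to 0.33 for Vwf and -0.08 to 0.23 for Vegfa. Y665H against Y665F males ran from -0.17 to 0.02 for Flt1, -0.16 to 0.00 for Tie1 and -0.22 to 0.03 for Vwf. For Vwf, WT males against females ran from -0.14 to 0.36 and the Y665F interaction from -0.36 to 0.16.

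Same-numbered libraries correlated at -0.47 to 0.77 in their deviations from group means, so the numbers were not taken as pairs. The replicate block turned Vwf to -0.05 in WT males against females and to 0.01 in the Y665F interaction. Among related genes named above, the block also ended the calls of Ankrd37 in Y665F against WT females (adjusted p = 0.0645), and of Jag1 (0.0841), Kcnj8 (0.0841), Ldha (0.0981) and Pgk1 (0.086) in Y665H against WT females, where it called 32 genes in place of 516. It ended those of Lmf1 (0.061), Pdgfrb (0.0684), Cspg4 (0.0673), Egln1 (0.0774) and Ppargc1a (0.0801) in Y665H against Y665F females. In WT males against females it ended those of Pgf (0.132), Sox7 (0.0857), Efnb2 (0.0548) and Cspg4 (0.0583).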
